A study of Mus musculus with 9 samples.

Results

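The phagocyte NADPH oxidase genes Cybb, Cyba, Ncf1, Ncf4, Rac1, Rac2 and Hvcn1 were followed in neutrophils sorted from mouse skin lesions and from the skin around them. The 7 genes were taken by gene name from the 34797 names on the array, which gave 10 of 55681 probes, since Cyba, Rac1 and Hvcn1 had 2 probes each. Neutrophils, gated as Gr-1bright cells, came from FVB/N mice given the carcinogen DMBA when they were 6 and again when they were 13 weeks old, with the tumor promoter PMA put on repeatedly each week from week 1 until week 18 to 20. All 4 groups shared this treatment, so no untreated mice entered any comparison. Skin around papillomas (papilloma skin) and around carcinomas (tumor skin) had 2 arrays each, papillomas had 3 and carcinomas (tumor) had 2. Each of the 9 arrays held RNA pooled from several mice.

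The oxidase is the enzyme of the respiratory burst, in which neutrophils turn oxygen into superoxide. Its membrane core, flavocytochrome b558, is made of gp91phox (Cybb), which carries electrons across the membrane, and p22phox (Cyba), which stabilises it. On activation, cytosolic p47phox (Ncf1) and p40phox (Ncf4) move to the core together with a Rac GTPase, and the proton channel Hv1 (Hvcn1) balances the charge that the electrons carry out. Loss of a core or cytosolic subunit causes chronic granulomatous disease.

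Promoters were held in the reference table for 3 of the 7 genes, and they are shown because Cybb and Cyba were lower in lesions and Ncf1 was not called. Each line gives the 250 bases before the annotated start (RefSeq, GRCm38.p6, minus strand, read 5′ to 3′), with motif matches in capitals. Cybb lay at chrX:9469325-9469574, Cyba at chr8:122432941-122433190 and Ncf1 at chr5:134229626-134229875.
Cybb: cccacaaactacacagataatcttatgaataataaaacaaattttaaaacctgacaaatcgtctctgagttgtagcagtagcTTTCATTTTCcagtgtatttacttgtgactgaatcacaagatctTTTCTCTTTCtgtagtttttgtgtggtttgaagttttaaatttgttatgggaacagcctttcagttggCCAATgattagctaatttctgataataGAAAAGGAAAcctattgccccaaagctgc
Cyba: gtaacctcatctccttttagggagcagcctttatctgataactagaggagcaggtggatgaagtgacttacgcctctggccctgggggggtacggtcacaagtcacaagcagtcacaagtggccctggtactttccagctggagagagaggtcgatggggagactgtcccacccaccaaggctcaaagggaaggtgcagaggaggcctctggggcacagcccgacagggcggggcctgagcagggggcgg
Ncf1: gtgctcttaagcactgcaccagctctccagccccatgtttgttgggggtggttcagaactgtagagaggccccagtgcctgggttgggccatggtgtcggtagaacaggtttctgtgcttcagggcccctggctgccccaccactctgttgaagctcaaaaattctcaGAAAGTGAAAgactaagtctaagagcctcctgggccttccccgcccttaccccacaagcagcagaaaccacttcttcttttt
The letters searched on both strands were GAGGAA (a PU.1 core), CCAAT and GAAA, any 2 bases and GAAA again (an interferon response motif), of which none overlapped in these windows. The Cybb window held CCAAT, found in 33.8% of all 32851 promoters, and 3 matches to the interferon response motif, found in 2.98%. The Ncf1 window held 1 match to that motif, the Cyba window held none of the motifs, and GAGGAA, in 23.3% of promoters, was in none of the windows. A match is a description of the letters and not a binding site.

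The levels below are log2 values of the deposited table, and 2 features of that table bear on every result. First, the columns papilloma skin 1 and tumor 1 ranked the probes less like their own scanner file (Spearman's rho 0.587 and 0.825) than like that of tumor 2 (0.923 and 0.946), and the columns papilloma 2 and papilloma 3 were each closest to the file of the other. On the arrays of papilloma skin 1, tumor skin 1 and tumor 1, between 90.7% and 95% of spots were well above background, against 44.2% to 64.2% on the other 6 arrays. Second, the study's methods describe removing a chip effect with ComBat, and the sources do not say whether the table holds that step. In the table the slides took a median of 20.3% of the variation within groups, with 2 of 5 degrees of freedom, against 50.5% in the quantile-normalized scanner files. The adjusted p-values of the group fit do not count the degrees of freedom that such a correction uses. They would be too small if the table holds that correction. The value with slide as a term is therefore given beside each call of a member probe. Calls of marker genes are given for the group fit alone.

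Every member probe was well above background on all 9 arrays and no spot was saturated. The 2 Hvcn1 probes shared 38 bases and were not independent readings. The Rac2 probe was spotted 10 times per array, and the SD of its spots was 0.04 to 0.157 on the log2 scale. The probe A_51_P131800 for Cyba covered 269 bases of the mm9 genome (chr8:124950893-124951161) with 60 bases, so that it lay across a splice junction, while the other probe, A_55_P1979341, lay at chr8:124948726-124948785.

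Cybb was lower in both kinds of lesion than in the skin around them. Papilloma arrays read 7.65, 7.0 and 7.86 against 9.77 and 9.43 for papilloma skin. Tumor arrays read 7.21 and 7.08 against 9.11 and 9.64 for tumor skin. The lowest skin array was above the highest lesion array, so lesions and skin did not overlap. Of all probes, 26.4% had all tumor arrays below all tumor skin arrays, and the share for lesions and skin together was not computed. Tumor was 4.68-fold below tumor skin (log2 fold change -2.23 ± 0.30, SE, n = 2 and 2, limma adjusted p = 0.00538), and papilloma was 4.29-fold below papilloma skin (-2.10 ± 0.27, n = 3 and 2, limma adjusted p = 0.00434). Once slide entered the model, the log2 differences were -1.83 (limma adjusted p = 0.048) and -2.30 (limma adjusted p = 0.00854), and Cybb was then the only member called in either comparison. In the table, tumor was lower than tumor skin on slide 1 alone by a log2 difference of -1.90. Papilloma was lower than papilloma skin by -2.12 on slide 1 and -2.44 on slide 2. In the quantile-normalized scanner files the tumor difference on slide 1 was -3.11. There papilloma was higher on slide 1 (1.97) and lower on slide 2 (-1.45).

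The scanner files gave other Cybb levels on several arrays, most of all on that of papilloma skin 1. After quantile normalization, Cybb was 5.0 on the array of papilloma skin 1 and 9.73 on that of papilloma skin 2, where the table had 9.77 and 9.43. The papilloma arrays read 6.97, 8.28 and 6.95, so that the difference from papilloma skin was 0.03 (limma adjusted p = 0.991) in place of a fall. The tumor skin arrays read 8.42 and 9.87 and the tumor arrays 5.31 and 7.39, which kept tumor below tumor skin, although no scanner-file setting passed the test for any member in that comparison. In the table without the columns papilloma skin 1 and tumor 1, Cybb was lower by -1.93 in papilloma (limma adjusted p = 0.0748), with papilloma skin then held by 1 array. Tumor was lower by -2.29 without them (limma adjusted p = 0.0472), with 1 tumor array left. The 6 scanner arrays left without papilloma skin 1, tumor skin 1 and tumor 1 gave -2.73 for papilloma (limma adjusted p = 0.308) and -2.89 for tumor (limma adjusted p = 0.34), with 1 array each for both kinds of skin and for tumor. The direction in papilloma thus depended on the value of 1 array and on the normalization. With all scanner arrays the papilloma difference was -0.8 after scaling to the 75th percentile and -0.37 after normexp background correction. The direction in tumor was the same in all 26 alternatives, from -3.67 to -1.83, but not all of these could have changed it. Those that only left out a papilloma or papilloma skin array, or only filtered probes, kept the difference at -2.23 by construction. The 6 scanner-file settings, which could change it, ran from -3.67 to -1.84.

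**Figure D1:**
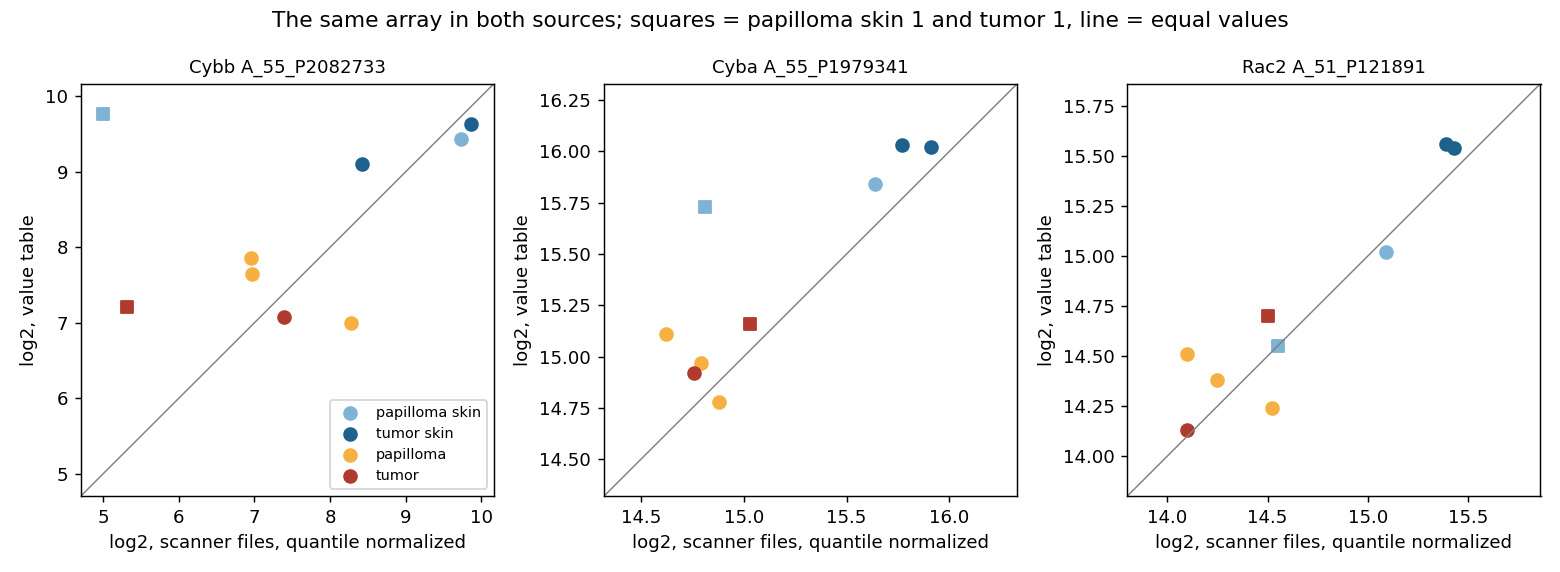
Level of Cybb, Cyba and Rac2 on each array in the deposited table (y axis, log2) against the quantile-normalized scanner files (x axis, log2), coloured by group, with squares for papilloma skin 1 and tumor 1, a line of equal values and a range of its own in each panel. For Cybb, papilloma skin 1 stands far from the line, at 9.77 in the table and 5.0 in the scanner files.

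Cyba, the partner of Cybb in the membrane core, was lower in lesions by about 1 log2 unit or less. Probe A_55_P1979341 read 14.97, 14.78 and 15.11 in papilloma against 15.73 and 15.84 in its skin, and 15.16 and 14.92 in tumor against 16.02 and 16.03 in its skin. Lesions and skin did not overlap, and between tumor and tumor skin alone 26.4% of all probes were likewise lower on every array. The log2 difference was -0.98 ± 0.16 (SE) for tumor (limma adjusted p = 0.0105) and -0.83 ± 0.15 for papilloma (limma adjusted p = 0.0153). Neither was called with slide as a term (-0.87, limma adjusted p = 0.124, and -0.89, limma adjusted p = 0.0699). The junction probe A_51_P131800 differed by -0.86 ± 0.32 and -0.76 ± 0.29 and did not pass (limma adjusted p = 0.127 and 0.183). Leaving out tumor 2 ended the tumor call of A_55_P1979341 (-0.86, limma adjusted p = 0.0871). Leaving out papilloma skin 1, papilloma skin 2, papilloma 1 or papilloma 2 ended its papilloma call, with differences of -0.89, -0.78, -0.84 and -0.74 (limma adjusted p = 0.0518 to 0.0942).

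Rac2, a Rac GTPase, had its highest level in tumor skin. It read 15.56 and 15.54 there and 14.70 and 14.13 in tumor. The papilloma arrays gave 14.38, 14.24 and 14.51, and those of the skin around papillomas 14.55 and 15.02. Tumor was 2.2-fold below tumor skin (-1.14 ± 0.23, SE, limma adjusted p = 0.022), which was not called with slide as a term (-1.05, limma adjusted p = 0.176). Without tumor skin 1, tumor skin 2 or tumor 2 the difference was -1.13, -1.14 and -0.85 and did not pass (limma adjusted p = 0.0726, 0.0683 and 0.138), in fits where 1 group had a lone array that was assumed to vary like the other groups. Papilloma differed from papilloma skin by -0.40 ± 0.21 (limma adjusted p = 0.329). The lesion effects of the stages differed by -0.73 (95% interval -1.45 to -0.02), with an unadjusted p of 0.0452 in limma that did not pass after adjustment (0.33), so a difference between the stages was not shown. Tumor skin was above papilloma skin by 0.77 (95% interval 0.24 to 1.30, limma adjusted p = 0.122).

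The cytosolic subunits were not called. Ncf1 read 12.39, 12.56 and 12.54 in papilloma against 12.12 and 12.50 in its skin, and 12.99 and 12.53 in tumor against 12.45 and 12.25 in its skin. Its log2 difference was 0.41 (95% interval -0.05 to 0.88) in tumor and 0.19 (-0.24 to 0.61) in papilloma. Ncf4 ranged from 16.11 to 16.67 over all arrays, and its difference was -0.04 (-0.45 to 0.38) in tumor and 0.09 (-0.29 to 0.47) in papilloma. The intervals of Ncf4 exclude a change as large as that of Cybb in either lesion.

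The 2 probes for Rac1, the Rac GTPase found in most cells, disagreed. Probe A_51_P513254 differed by -0.30 in tumor and -0.31 in papilloma, and probe A_55_P2076489 by 0.32 and 0.53, none of which passed (limma adjusted p = 0.243, 0.248, 0.292 and 0.108). The probes start 965 bases apart. The second minus the first was 3.43 ± 0.22 (SD, n = 5) in lesions and 2.71 ± 0.27 (SD, n = 4) in skin, a contrast chosen after the values were seen and given as a description. The difference of 0.72 was 0.28 in the scanner files, 0.56 in the table without papilloma skin 1 and tumor 1, and 0.66 without tumor skin 1 as well. No direction can be given for Rac1.

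Hvcn1 leaned higher in lesions without passing. Probe A_55_P1960053 read 9.91, 9.62 and 10.51 in papilloma against 10.14 and 9.35 in its skin, and 9.64 and 9.89 in tumor against 9.31 and 9.23 in its skin. Its difference was 0.50 (95% interval -0.25 to 1.25) in tumor and 0.27 (-0.42 to 0.95) in papilloma, and the overlapping probe gave 0.59 and 0.36. Papilloma skin spanned nearly as wide a range as papilloma did.

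**Figure D2:**
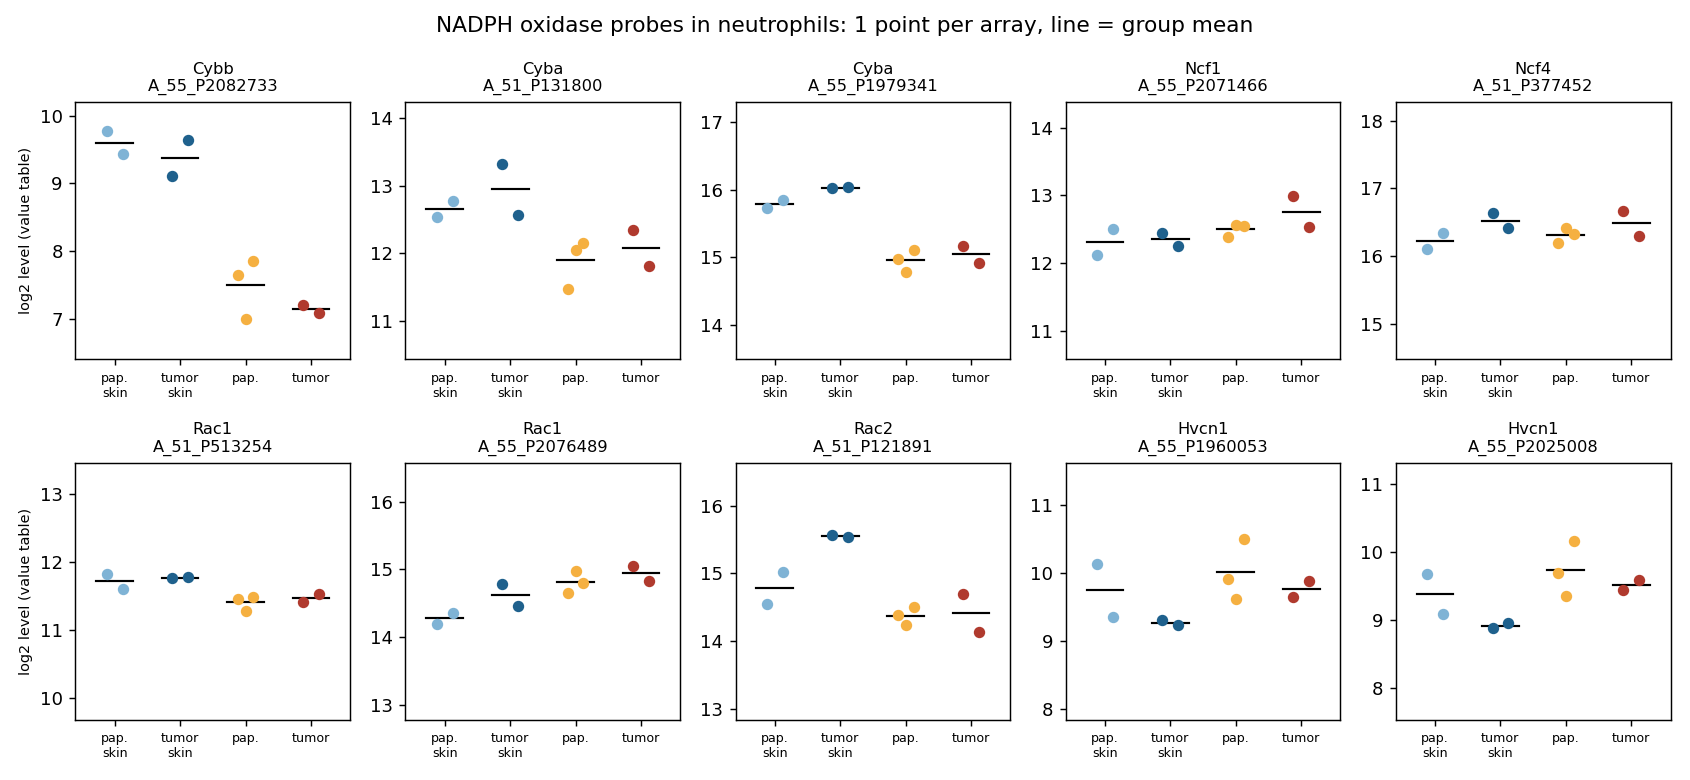
Level of each of the 10 probes (y axis, log2, deposited table, each panel covering the same range around its own mean) in the 4 groups, with 1 point per array and a line at the group mean. Cybb, both Cyba probes and Rac1 A_51_P513254 lie lower in all lesion arrays than in all skin arrays. Of all probes, 26.4% had all tumor arrays below all tumor skin arrays, a split of fewer arrays. The share with all lesion arrays below all skin arrays was not computed. Ncf4 stays between 16.11 and 16.67.

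Counted over the family, 3 of 10 probes were lower in tumor than in tumor skin and 0 were higher, where 3.96% of all probes, and 4.89% of those whose mean log2 level reached 6, were called lower. In papilloma 2 of 10 were lower, where 2.19% of all probes, and 3.37% of those at that level, were. With slide as a term 1 of 10 was lower in each, against 0.0736% and 0.621% of all probes. The median log2 difference of the 10 probes was -0.17 in tumor and -0.11 in papilloma, against -0.02 and -0.01 over all probes. All tumor arrays were below all tumor skin arrays for 5 probes and above for 4, which 26.4% and 25.7% of all probes also showed.

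**Figure D3:**
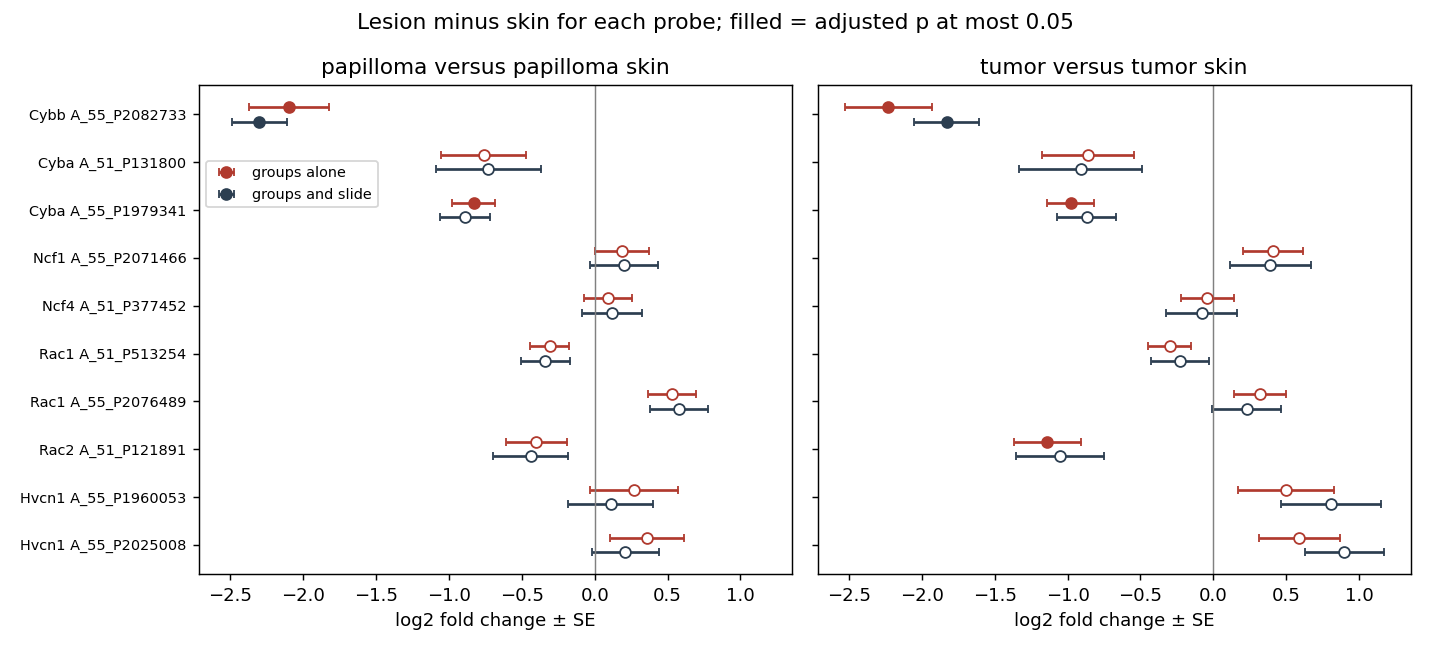
Log2 fold change of lesion over skin (x axis, bars are SE) for each probe (y axis) at the papilloma and tumor stages, fitted with groups alone (red) and with groups and slide (dark), filled where the adjusted p was at most 0.05. Cybb is filled in both fits at both stages, and the other filled points, Cyba and Rac2, are open once slide is a term.

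The test called no difference between the stages in this family. None of the 10 probes passed for tumor versus papilloma, for tumor skin versus papilloma skin or for the difference between the lesion effects in limma, where 0.645%, 0.623% and 0.0323% of all probes were called, and 0, 1 and 1 had an unadjusted p under 0.05, as did 14.4%, 22.7% and 14.7% of all probes. In order of level, the mean of Cybb was 9.60 for papilloma skin, then 9.37 around tumors, 7.50 within papillomas and 7.15 within tumors. Neighbours within skin (-0.23, 95% interval -0.92 to 0.46) and within lesions (-0.36, -0.99 to 0.27) did not differ beyond their spread.

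Of a list of 69 other genes around the oxidase, 67 were on the array with 105 probes. In the group fit 17 probes were lower and 6 higher in tumor, and 13 were lower and 7 higher in papilloma, where 3.96%, 5.78%, 2.19% and 4.15% of all probes were called. With slide as a term, chosen after seeing the data, 0 were called in tumor and 4 in papilloma. Of these, Tkt and Gpx1 were lower, and 1 probe each of Nox1 and Nox4 was higher. Nox1 was called on A_55_P1997906 (1.99) and not on A_51_P364714 (0). Nox4 was called on A_55_P1972040 (1.33) and not on A_51_P369311 (0.03) or A_55_P1972039 (0.83). In that fit 0.0736% of all probes were called lower and 0.307% higher in tumor, and 0.621% and 1.29% in papilloma. The enzymes that supply NADPH held 4 lower genes of 6 in tumor and 3 of 6 in papilloma. Among them G6pdx, which opens the pentose phosphate pathway, was -2.68 ± 0.26 in tumor (limma adjusted p = 0.00163) and -1.47 ± 0.23 in papilloma (limma adjusted p = 0.00941), and once slide entered the model it was -2.61 and -1.51 and did not pass (limma adjusted p = 0.0528 and 0.0657). Tkt, the transketolase of the same pathway, was -1.54 ± 0.13 in papilloma and -1.49 with slide as a term (limma adjusted p = 0.0171). Me1, another source of NADPH, was higher in tumor by 1.86 on 1 of its 3 probes.

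Upstream of the oxidase, 6 of 22 kinase probes were lower and 0 higher in tumor, and 4 were lower and 1 higher in papilloma. Of 15 receptor probes 1 was lower in tumor and 1 higher in papilloma. Over all probes 3.96% were called lower and 5.78% higher in tumor, and 2.19% and 4.15% in papilloma. Arhgdib, an inhibitor that holds Rac in the cytosol, was -1.48 in tumor and -1.01 in papilloma on probe A_52_P515247. Its other probe, A_55_P1966998, was -1.71 in tumor and -0.74 in papilloma, and the latter did not pass. Mapk14, the p38 kinase, was lower on both probes at both stages, by -1.64 and -1.79 in tumor and -1.42 and -1.30 in papilloma. Prkcb, a protein kinase C that phosphorylates p47phox, was -1.31 in tumor and -0.90 in papilloma on probe A_55_P1976278. On probe A_65_P20249 it was -1.43 in tumor and -0.64 in papilloma, and the latter did not pass. Downstream, Mpo, which uses the peroxide made from superoxide, was -2.28 on both probes in papilloma, 1 of which was well above background on only 4 arrays, and was not called in tumor, while Sod3, an extracellular superoxide dismutase, was 1.78 higher in papilloma. Of the genes in this paragraph none was called with slide as a term.

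**Figure D4:**
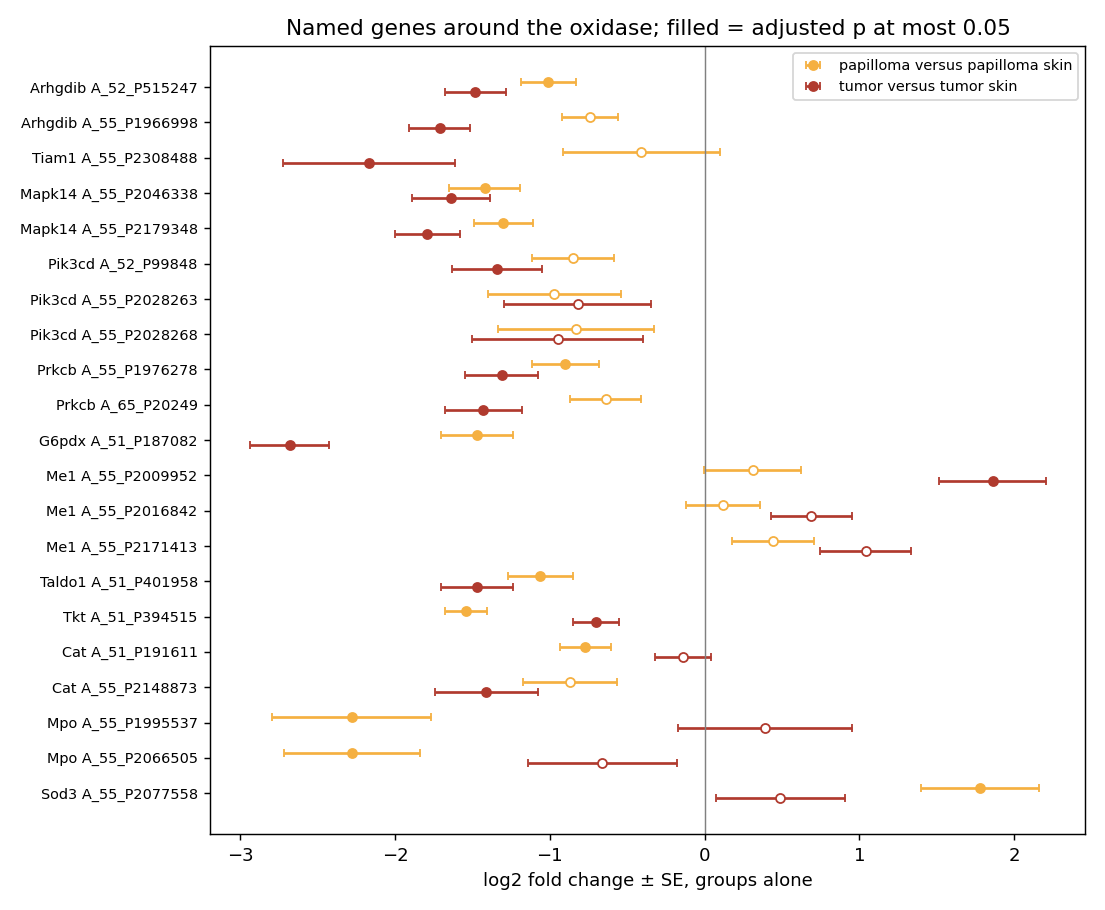
Log2 fold change of lesion over skin (x axis, bars are SE, groups alone) for the probes of 12 named genes around the oxidase (y axis) at the papilloma and tumor stages, filled where the adjusted p was at most 0.05. G6pdx has the lowest value, -2.68 in tumor, and Me1 and Sod3 are to the right of 0.

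Marker genes of neutrophils and of other cells were also called in the group fit, some lower in lesions and some higher. Of 11 neutrophil genes 6 were lower in tumor and 5 in papilloma, all but Ly6g granule or secreted products such as Camp (-3.57 and -4.14) and Ngp (-3.39 and -3.27), and Csf3r, the receptor for G-CSF, differed by -0.15 and -0.09 without passing. Of 8 eosinophil genes 4 were lower at each stage, namely Ear1 (-2.89 and -3.43), Ear2 (-3.29 and -3.87), Ccr3 (-2.03 and -2.29) and Il5ra (-1.64 and -1.95), and Siglec5 was higher in tumor (1.38, limma adjusted p = 0.0138), while on the 6 arrays with fewer bright spots the granule genes Epx and Prg3 did not rise well above background. The log2 of the summed levels of that list was 11.83 to 12.21 in papilloma against 13.73 to 14.11 in its skin, and 12.92 to 13.11 in tumor against 13.15 to 13.17 in its skin. In tumor most of that sum came from Siglec5, at 12.87 and 12.74 against 11.68 and 11.18 in its skin, while Ear2 was at 9.15 and 8.02 against 11.69 and 12.06. Of 11 monocyte and macrophage genes Emr1 was lower at both stages (-2.04 and -3.09) and C1qa was higher in papilloma (0.92, limma adjusted p = 0.0372), with summed levels of 15.10 to 15.59 in skin and 14.76 to 15.07 in lesions. Most of that sum came from Csf1r, at 14.52 to 15.15 over the arrays, which was not called (-0.17 and -0.47). The B lineage gene Igj was -7.13 and -6.71. Keratinocyte genes were higher, 4 of 10 in tumor and 3 of 10 in papilloma, with Krt6b at 7.23 and 4.88. Of 4 endothelial genes 1 was higher in tumor and 2 in papilloma, and no mast cell gene was called. Of 6 T cell genes 1 was lower in tumor and 2 in papilloma. Of 5 fibroblast genes Dcn was lower in tumor (-1.38) and none was called higher, but the median difference of the list was 0.98 in tumor and 1.28 in papilloma. Its summed levels were 15.02 to 15.48 in papilloma against 13.51 to 14.57 in its skin. In tumor they were 12.24 to 13.78 against 12.92 to 13.03 in its skin. In papilloma 1 of 9 dendritic cell genes was lower, Xcr1, which was well above background on only 3 arrays. The part of these cells in the Cybb result was not tested. Fewer cells of a type and less RNA per cell cannot be told apart in these samples.

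Over the 9 columns, the genes whose levels ran closest to Cybb were Cox4i1 (Pearson's r 0.991) and Atp2a3 (0.99) among 18897 candidates. For Cyba they were Srd5a3 (0.993) and Tagln2 (0.992), and for Rac2 they were Ube2l6 (0.991) and Cd37 (0.988). The 9 columns fall into skin and lesion groups and share slides, so that these values describe the columns.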

How the data were processed

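Agilent 8x60K arrays of sorted neutrophils were read with Feature Extraction 10.7.3.1, and the authors deposited the scanner intensity of each spot together with a table of log2 values per probe. Per the methods the data were quantile normalized and corrected for chip with ComBat, but whether the deposited log2 table holds both steps was not given in the sources used here. The log2 table was tested as deposited with limma 3.58.1 in R 4.3.3, with 4 group means, 5 residual degrees of freedom and Benjamini-Hochberg adjustment over all 55681 probes, and a probe passed at an adjusted p of at most 0.05. Slide as a term left 3 residual degrees of freedom. From the scanner intensity, log2 processed signals were quantile normalized over 55155 probes with no missing value. The fits and ComBat were tested on simulated data. ComBat followed by a fit of groups alone called unchanged probes there and was kept only as an alternative. Probe positions are those of the array design (mm9). The 7 members and all lists were chosen with earlier results of these data known. Named are all members and at most 12 genes of the list around the oxidase, those called with the largest change, and the genes of that list called with slide as a term. One gene of the list is not reported here. p-values measure the spread between pooled samples, and the number of arrays limits the precision. Python 3 drew the figures.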

Additional observations from a re-analysis of the deposited data

How the results depend on the processing

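The count of member probes lower in tumor than tumor skin, 3 in the group fit, was 0 in all 6 scanner-file settings (quantile normalization, slide as a term, ComBat, 75th percentile, normexp, and 6 arrays) and 1 with slide as a term on the deposited table. It ranged from 1 (without tumor 2) to 3 when single arrays were left out. For papilloma, 2 in the group fit, it was 0 in the scanner files under quantile normalization, slide as a term, 75th percentile, normexp and 6 arrays, 0 without the columns papilloma skin 1 and tumor 1, and 1 with slide as a term or without papilloma skin 1, tumor skin 1 and tumor 1. Leaving out single arrays gave 1 (without papilloma skin 1, papilloma skin 2, papilloma 1 or papilloma 2) to 2. ComBat on the scanner files also gave 2 for papilloma, but these were the Hvcn1 probes, higher, in a fit that called unchanged probes on simulated data. Cybb in papilloma turned to 0.03, 0.15 and 0.13 in the scanner files under quantile normalization, slide as a term and ComBat, and Cyba A_55_P1979341 to 0.68 under the 75th percentile. On the scanner array of papilloma skin 1 Cybb read 5.0, and the cause was not tested.

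The count for the list around the oxidase, 23 in tumor and 20 in papilloma, was 0 and 0 in the quantile-normalized scanner files, 0 and 4 with slide as a term, 14 and 8 without the columns papilloma skin 1 and tumor 1, and 13 and 12 without papilloma skin 1, tumor skin 1 and tumor 1. Leaving out single arrays gave 8 (without tumor 2) to 22 in tumor and 6 (without papilloma skin 1) to 19 in papilloma.

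With the replicate number as a replicate block, 1 member probe passed in tumor and 1 in papilloma. The numbers do not pair the samples, since deviations of same-numbered arrays correlated from -0.96 to 0.53 over 12 pairs, 4 of them over 0.1. The settings without papilloma skin 1, tumor skin 1 and tumor 1, the slide term for the list and the Rac1 probe contrast were chosen after seeing the data.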
